A study of Solenopsis japonica with 2 samples.

Results

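Aquaporins are membrane channels that let water, and in some members of the family glycerol and other small solutes, cross cell membranes along their gradients. In insects they serve the Malpighian tubules, the hindgut, the gut, the fat body and the tracheal system, and in several cold-hardy insects they have been studied as routes by which cells lose water and take up glycerol when body fluids freeze or are concentrated. Aquaporin contigs were sought in the deposited comparison of *Solenopsis japonica* workers by the word aquaporin in the description of the best protein match (NR database) or nucleotide match (NT database). A contig here is a transcript assembled de novo from the reads. The search found 1 contig among the 4487 contigs of the table, c79791_g1_i1. It was chosen with its difference between the temperatures already known, so the counts below describe it and test nothing.

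The ants were adult wild-type workers of this fire ant, kept at 1 of 2 temperatures for 24 h, 9 °C in the T9 group and 25 °C in the T25 control group, and RNA was taken from whole bodies. The labels give 1 RNA-seq library for each temperature, made from a pool of workers of a laboratory colony. The methods speak of repeated preparations for each treatment, and whether a library pools them is not given in the sources used here. There is no replicate in the table, no spread between pools of ants is known, and no p-value is given. The table holds a selection of contigs which, by the name the authors gave it, was made by fold change and raw p-value. The smallest ratio in it was 2.35 in either direction, and each contig had at least 1 count in each library. Aquaporin genes outside this selection were not analysed here. The counts of the table sum to 7176142 in the T9 library and 11259918 in the T25 library, and counts were scaled by the normalised library sizes carried by the authors' log2 values (53237356 for T9 and 49264352 for T25). Intervals in parentheses are exact 95% intervals for counting error only, Poisson for a single level and Clopper-Pearson for a ratio.

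Every database that gave a named match for c79791_g1_i1 placed it in the aquaporin or MIP (major intrinsic protein) family. Its best protein match was aquaporin AQPAe.a-like isoform X1 of the fire ant *Solenopsis invicta*, and its best nucleotide match was a transcript of the same gene (LOC105207509). The UniProt match was aquaporin AQPAe.a of the mosquito *Aedes aegypti*, a water channel known there from tracheolar cells of the Malpighian tubules. The Pfam family was MIP, and the gene ontology terms, carried over from a gene of the mosquito *Anopheles gambiae*, included water channel activity and glycerol channel activity. No further contig of the table came from the same Trinity component, matched the same *S. invicta* gene or carried the MIP family, so 1 transcript stands for the whole family here.

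The aquaporin contig had 305 counts in the T9 library (272 to 341) and 9 counts in the T25 library (4.12 to 17.1). Scaled to counts per 1000000 of normalised library size (CPM), this is 5.73 CPM in T9 (5.10 to 6.41) against 0.183 CPM in T25 (0.0835 to 0.347). The contig was thus well covered in the cold library and rarely counted in the control library. The ratio was 31.4-fold higher in T9 (16.3 to 69.2), or 4.83 on the log2 scale after 1 was added to each scaled count. It was 53.2-fold when scaled by the sum of the table's counts, 20.8-fold with 5 scaled counts added to each library, and 215.4-fold with the median of the ribosomal protein contigs set to 0. That last reference has 3 contigs, none of them matched to an ant. Nearly all of the width of the counting interval comes from the 9 counts in T25. The deposited FPKM values, which also divide by contig length, were 7.65 in T9 and 0.22 in T25, a ratio of 34.8 that the rounding of the FPKM values alone leaves between 34.0 and 35.6.

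**Figure D1:**
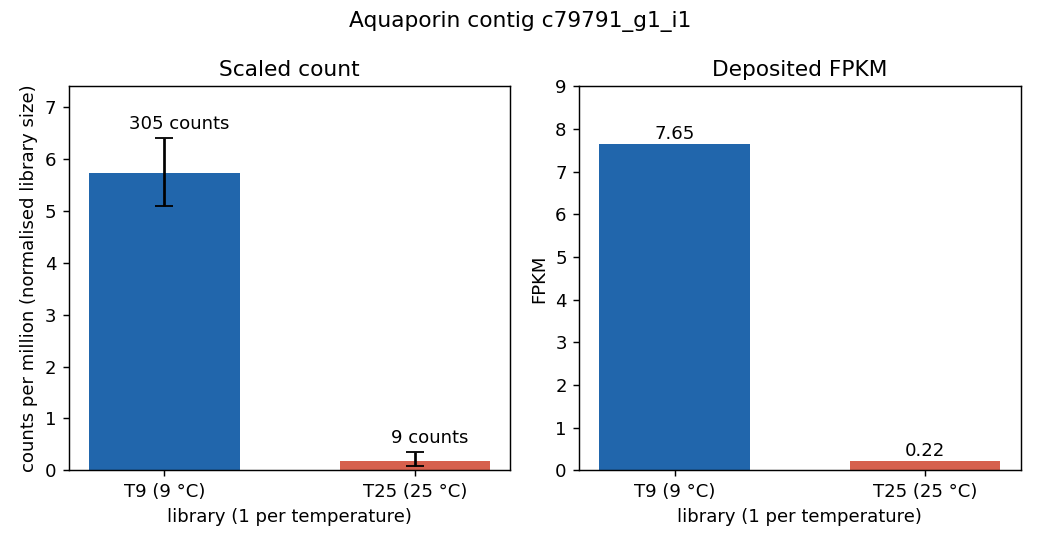
Level of the aquaporin contig c79791_g1_i1 in the T9 and the T25 library, as CPM of the normalised library size (left, bars with exact 95% Poisson intervals for counting error) and as deposited FPKM (right, without error). The T9 library, with 305 counts, stands at 5.73 CPM and the T25 library, with 9 counts, at 0.183.

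Being the single member, the contig accounts for 1 of 1 aquaporin contigs at least 10-fold higher in T9. That ratio was reached by 476 of the 4487 contigs of the table (10.6%), and 54.7% were higher in T9 at any ratio. Since the contig was picked from this contrast, nothing is read from that comparison. Its ratio ranked 55th, with 54 contigs above it. Among the 1507 contigs whose counts summed to 100 or more, 38 had a larger ratio, and among the 1851 contigs with a protein description 38 had. The median log2 ratio over the contigs higher in T9 was 2.15, and the aquaporin contig lay well above it.

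**Figure D2:**
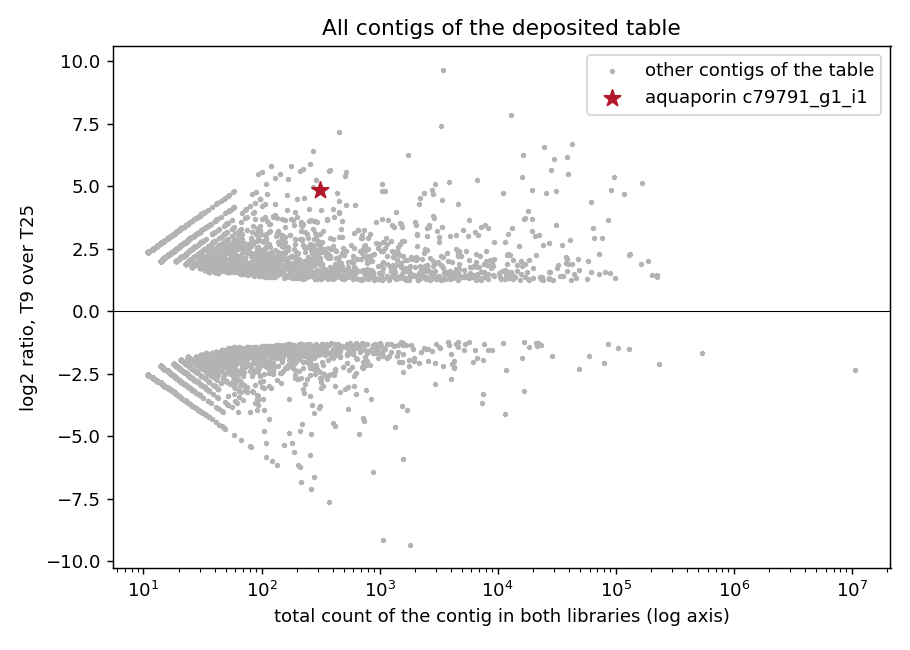
Log2 ratio of T9 over T25 against the total count in both libraries (log axis) for the 4487 contigs of the deposited table, with the aquaporin contig as a red star at 4.83. The empty band around 0 is the selection of the table, and the aquaporin contig has one of the larger ratios among contigs of a similar total.

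By level, measured as FPKM, the contig stood high in the table in T9 and low in it in T25. Its FPKM exceeded that of 84.9% of the contigs in T9, where the table's median was 1.25, and that of 17.7% of the contigs in T25, where the median was 1.18. The count per unit of FPKM, which scales with contig length, was 39.9 for aquaporin in T9 against a median of 20.7 over the table, and it exceeded that of 74.4% of the contigs. By this measure the aquaporin contig was longer than most. Among the 54 contigs of the table with exactly 9 counts in T25, the median count in T9 was 40 and the highest was 508, against 305 for aquaporin. The table holds only contigs selected for a difference, and aquaporin was chosen with its difference known. Nothing is therefore read from its place among them.

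The gene ontology terms of the contig were shared with few others. Cellular water homeostasis, water channel activity and glycerol channel activity were each attached to 1 contig of the table, the aquaporin. Ion transmembrane transport was attached to 4 contigs, of which 2 were higher in T9. Besides aquaporin, the higher one was monocarboxylate transporter 10 (c81750_g1_i1), a carrier of small organic acids or aromatic amino acids, with 45 counts in T9 and 11 in T25, 3.79-fold higher in T9 (1.93 to 8.12). The lower ones were acetylcholine receptor subunits, ion channels of neurons: c81132_g1_i1 had 6 counts in T9 and 22 in T25, and c71443_g1_i1 had 9 in T9 and 35 in T25. Integral component of plasma membrane was attached to 77 contigs, of which 40 were higher in T9 (51.9%, against 54.7% of the table), and 1 of them had a larger ratio than aquaporin.

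With 1 library per temperature, likeness to the aquaporin pattern comes down to a single number, the ratio. Of 335 other contigs with a protein description and a total count within 2-fold of that of aquaporin, 10 had a larger ratio. Of the 10 nearest in log2 ratio, 6 had an uncharacterized protein as their NR match, among them c44190_g1_i1 with 423 counts in T9 and 14 in T25 (28.0-fold higher in T9, 16.5 to 51.6) and c6255_g2_i1 with 267 in T9 and 7 in T25 (35.3-fold, 16.9 to 88.6). The nucleotide match named 2 of the 6, c6255_g2_i1 as peritrophin-1-like, of the proteins that line the gut and also among the midgut markers below, and c88341_g3_i1 as dopamine N-acetyltransferase-like. A further 3 were matched to fatty acyl-CoA reductase 1, of a family of enzymes that make fatty alcohols for waxes. These were c90634_g5_i1 with 161 counts in T9 and 5 in T25 (29.8-fold, 12.5 to 93.0), c90634_g3_i2 with 284 in T9 and 6 in T25 (43.8-fold, 19.9 to 120.4) and c89980_g2_i1 with 508 in T9 and 9 in T25 (52.2-fold, 27.3 to 114.9). The first pair of these share a Trinity component and may be pieces of related transcripts. The remaining contig, c90590_g3_i1, was matched to a hypothetical *S. invicta* protein and had 590 counts in T9 and 28 in T25 (19.5-fold, 13.4 to 29.6). The counting interval of aquaporin overlapped that of each of the 10, so their order is not resolved at this depth.

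**Figure D3:**
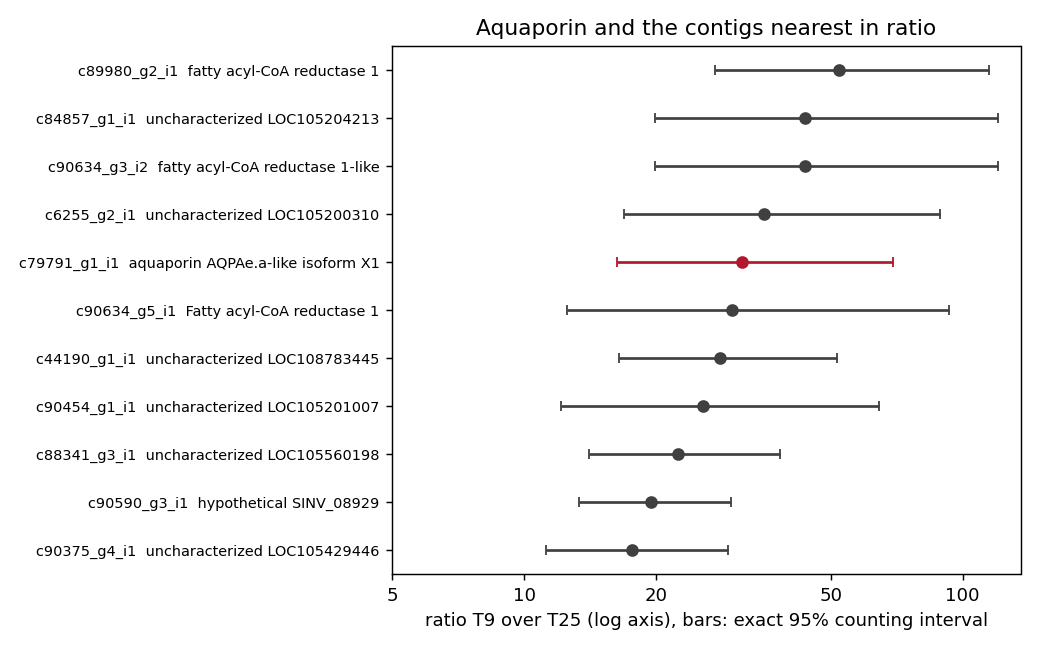
Ratio of T9 over T25 (log axis) with exact 95% counting intervals for the aquaporin contig (red) and the 10 described contigs nearest to it in log2 ratio among those with a total count within 2-fold. The ratios run between 17.6 and 52.2, and each interval overlaps the aquaporin interval of 16.3 to 69.2.

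The contigs caught by words for glycerol and polyol metabolism, not all of which act on polyols, lay on both sides. Of 10 contigs in this list, 5 were higher and 5 lower in T9, near the 54.7% higher in the whole table, so no direction is read from the count. By level the list was higher in T9, with sums of 1064 CPM in T9 and 351 in T25. The single contig c45712_g1_i1 held 591 in T9 and 161 in T25. Their median log2 ratio was -0.10, and 0 of 10 had a ratio as large as aquaporin. Glycerol kinase (c82862_g1_i2), which phosphorylates glycerol once it is in the cell, had 8833 counts in T9 and 3237 in T25, 2.53-fold higher in T9 (2.43 to 2.63). In FPKM it stood at 48.78 in T9 and 17.65 in T25, above aquaporin in each library. Inositol oxygenase (c45712_g1_i1), which degrades the polyol inositol, had 31462 counts in T9 and 7924 in T25, 3.67-fold higher (3.58 to 3.77). Inositol monophosphatase (c72178_g1_i2), which releases free inositol, had 7738 in T9 and 2496 in T25, 2.87-fold higher (2.74 to 3.002). The list also took in enzymes that do not handle free glycerol: glycerol-3-phosphate acyltransferase 1 (c87193_g3_i1), which begins the synthesis of glycerolipids, was 2.44-fold higher in T9 (2.35 to 2.55), and an acylglycerol-phosphate acyltransferase of the next step (c87556_g1_i3), with 52 counts in T9 and 168 in T25, was 3.49-fold lower in T9 (2.54 to 4.86). By its words the list further took in diacylglycerol kinases and glycogen synthase kinase-3, which do not act on polyols. With only the contigs named for glycerol kinase, inositol enzymes or phosphofructokinase, a choice made after the values were seen, 75.0% of 4 contigs were higher. Glycerol kinase and the inositol enzymes were higher, and phosphofructokinase (c84462_g1_i1), with 17 counts in T9 and 50 in T25, was lower.

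Glycerol can also come from stored fat, and the contigs of triacylglycerol breakdown and diacylglycerol turnover were divided, with 2 of 6 higher in T9, against 54.7% of the table, and 4 lower (median log2 ratio -2.06). The share higher was 66.7% among the 3 contigs with at least 100 counts, a total at which the table's share was not computed. It was also 66.7% with the median of the ribosomal protein contigs set to 0, below the 91.3% of the whole table. No direction is read from either. The 2 contigs higher in T9 were both matched in NR to pancreatic triacylglycerol lipase-like proteins, which split dietary or stored fat. The nucleotide match of c83670_g1_i1, however, was lipase member H-B-like. The first, c78680_g1_i1, had 2683 counts in T9 and 177 in T25, 14.0-fold higher in T9 (12.04 to 16.4), and the other, c83670_g1_i1, had 1376 in T9 and 109 in T25, 11.7-fold higher (9.61 to 14.3). A further contig with the pancreatic lipase match (c79893_g1_i1), named after its values were seen, had 1 count in T9 and 18 in T25. Hormone-sensitive lipase (c102478_g1_i1), the enzyme that mobilises stored fat in the fat body, lay on the other side with 12 counts in T9 and 71 in T25, 6.39-fold lower in T9 (3.44 to 13.0). A pair of diacylglycerol kinases, which turn a lipid messenger into phosphatidic acid, were lower as well: c76555_g3_i1 had 40 counts in T9 and 110 in T25, and c47308_g1_i1 had 2 in T9 and 27 in T25.

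Trehalose is the main blood sugar of insects and a known osmolyte of the cold, and its carriers were mostly higher in T9. All 10 contigs of the list were matched to facilitated trehalose transporters, and 8 were higher in T9 against 2 lower (80.0% higher, 54.7% in the whole table, median log2 ratio 2.46). In 1 of them, c88644_g1_i1, the ratio exceeded that of aquaporin: it had 455 counts in T9 and 2 in T25, 210.5-fold higher in T9 (57.9 to 1744), and is named because of that value. The carriers with the most counts differed less. c77731_g1_i1 had 5839 counts in T9 and 1819 in T25, 2.97-fold higher in T9 (2.82 to 3.13), while c83283_g2_i1 had 1179 in T9 and 2590 in T25, 2.37-fold lower (2.22 to 2.55). Between these and aquaporin lay c66989_g1_i4, 5.69-fold higher (5.07 to 6.40), c74492_g2_i1, 5.33-fold higher (4.598 to 6.21), and c80288_g1_i3, which with 1087 counts in T9 and 80 in T25 was 12.6-fold higher (10.0 to 16.0).

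Water follows ions across insect epithelia. Most contigs caught by words for pumps, exchangers, potassium channels and carbonic anhydrases lay on the side opposite to aquaporin. All 12 lay on its side with the median of the ribosomal protein contigs set to 0, where 91.3% of the whole table did. No direction of the list is read from that setting. Of 12 contigs 8 were lower in T9, against 45.3% of the table, and 4 were higher (median log2 ratio -1.43). Among the 7 contigs with at least 100 counts, 28.6% were higher, and the table's share at that total was not computed. By level the list went the other way, with sums of 347 CPM in T9 and 162 in T25. The proton pump subunit c26171_g1_i1 alone held 322.5 in T9 and 123.6 in T25. A ratio of at least 10 was reached by 2 of the 12, against 10.6% of the whole table. These were a mitochondrial sodium/hydrogen exchanger (c89124_g1_i1, 90 counts in T9, 8 in T25) and an inward rectifier potassium channel (c65809_g1_i1, 14 in T9, 1 in T25). A contig matched to the same gene as the latter, c80894_g1_i1, was lower (11 in T9, 45 in T25). The V-type proton pump, which drives secretion in the Malpighian tubules, was represented on both sides. Its proteolipid subunit (c26171_g1_i1) had 17170 counts in T9 and 6090 in T25, 2.61-fold higher in T9 (2.53 to 2.69), and its subunit a (c89487_g2_i4) had 252 in T9 and 745 in T25, 3.19-fold lower (2.77 to 3.70). Carbonic anhydrases supply protons and bicarbonate to such pumps. The beta carbonic anhydrase c87646_g1_i4 was 2.44-fold higher in T9 (2.09 to 2.87), with 578 counts in T9 and 219 in T25, and the carbonic anhydrase 1-like contigs c79372_g2_i1 and c75878_g1_i1 were 2.70-fold (2.21 to 3.31) and 2.85-fold (2.29 to 3.58) lower.

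Receptors for hormones of water balance were represented by 2 contigs, both higher in T9, against 54.7% of the whole table. With 2 contigs, no direction of such receptors is read from this. The vasopressin V1a receptor-like contig c87101_g1_i9, whose insect relatives bind the peptide inotocin, had 216 counts in T9 and 79 in T25, 2.53-fold higher in T9 (1.95 to 3.32). The calcitonin receptor-like contig c88100_g3_i2, of the family that holds the receptors of the calcitonin-like diuretic hormone, had 86 in T9 and 14 in T25, 5.68-fold higher (3.21 to 10.8). Neither counting interval reached the lower bound of the aquaporin interval, 16.3.

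Of 4 contigs of heat shock and antioxidant proteins, 2 were higher in T9 and 2 lower, against 54.7% higher in the whole table. The higher ones were the contigs matched to ants. With 2 such contigs, no direction of antioxidant proteins is read from this. Catalase (c118136_g1_i1), which breaks down hydrogen peroxide, had 72751 counts in T9 and 26472 in T25, 2.54-fold higher in T9 (2.51 to 2.58), and Cu-Zn superoxide dismutase 2 (c90873_g1_i1) had 33904 in T9 and 8567 in T25, 3.66-fold higher (3.58 to 3.75). The heat shock contigs c90598_g2_i3 and c94540_g1_i1, each with 1 count in T9 and with 121 and 24 in T25, were matched to a mite and to a mammal and not to an ant.

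**Figure D4:**
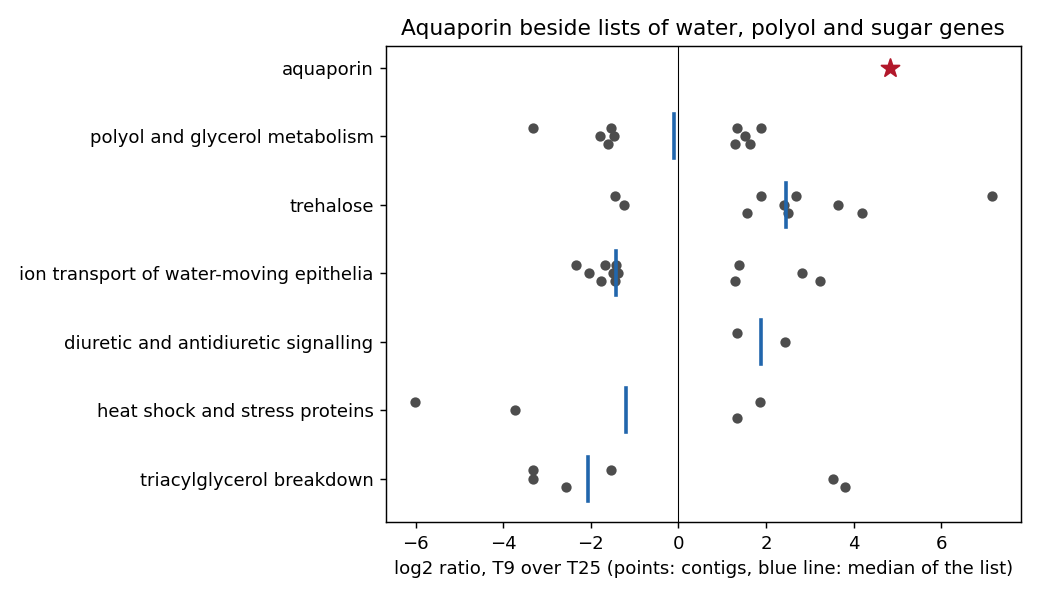
Log2 ratio of T9 over T25 for the aquaporin contig (red star, 4.83) and for each contig of 6 gene lists, with the median of each list as a blue line. The trehalose list has its median at 2.46 and 1 contig to the right of aquaporin, while the contigs of ion transport lie mostly left of 0. All 12 would lie right of it with the median of the ribosomal protein contigs set to 0, as would 91.3% of the whole table.

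Whole ants were sequenced, so fewer cells of a type and less RNA per cell cannot be told apart. The table also holds marker contigs of several organs, among them organs that use aquaporins. Each marker list other than that of the eye had contigs on both sides. The counts below stand beside 54.7% of contigs higher in T9 over the whole table. Of 7 contigs for Malpighian tubule and hindgut (proton pump, inward rectifier channels and organic cation transporters), 5 were higher in T9, and their levels summed to 352 CPM in T9 and 147.1 in T25. The proton pump subunit c26171_g1_i1 alone held 322.5 CPM in T9 and 123.6 in T25, and without it the sums were 29.9 in T9 and 23.4 in T25. Midgut markers such as trypsins and peritrophins were higher in 23 of 30 contigs, with sums of 4732 CPM in T9 and 261 in T25, or in 21 of 28 without the protease inhibitors that the words also caught, a choice made after the values were seen. Salivary and venom gland markers were higher in 7 of 8 contigs, with 2139 in T9 and 77.4 in T25. Fat body markers were higher in 4 of 6 contigs (4114 in T9, 1486 in T25) and cuticle markers in 4 of 12 (3002 in T9, 956 in T25), where the single contig c13448_g1_i1 held 2470 in T9 and 677 in T25. On the other side, antennal markers were higher in 2 of 50 contigs (68.2 CPM in T9, 535 in T25), muscle markers in 3 of 13 (915 in T9, 1933 in T25) and eye markers in 0 of 2 (0.225 in T9, 1.54 in T25). The troponin T contig c101719_g1_i1 alone held 552.9 CPM in T9 and 1537 in T25. Without it the muscle sums were 362 in T9 and 395 in T25. The table has no contig at a count of 0, so an absent marker could not be seen in it. The part of these differences between organs in the aquaporin ratio was not tested.

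The direction of the aquaporin contig was the same under each scaling tried, but the split of the lists was not. With the median of the ribosomal protein contigs set to 0, 91.3% of the table lay above 0 in place of 54.7%, and the contigs above 0 included 90% of the 10 polyol contigs, 56.0% of the 50 antennal contigs and each contig of the ion transport, cuticle, muscle and eye lists. That reference has 3 contigs, of which 2 were matched to mammals and the other to moths, so none was matched to an ant. Their summed counts were 5 in T9 and 75 in T25.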

How the data were processed

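RNA-seq of whole *S. japonica* workers at 9 °C and 25 °C, 1 library each, was analysed from the authors' table of 4487 contigs and 23 columns. The authors trimmed reads (Trimmomatic 0.38, FastQC 0.11.7), assembled both libraries together with Trinity, clustered contigs with CD-HIT and aligned each library with Bowtie 1.1.2, and the deposited counts, whole numbers without normalization, were estimated with RSEM. The deposited FPKM values were scaled by the authors to contig length and depth. The deposited log2 values are log2(CPM + 1) by the authors. Library sizes were recovered from them and used for scaling. Columns with the authors' fold changes, mean log CPM and raw and adjusted p-values were not used.

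Ratios, exact 95% intervals and log2 ratios (1 scaled count added) were computed with scipy 1.17.1, numpy 2.4.6 and pandas 2.3.3 (Python 3.11.15), and matplotlib 3.10.9 drew the plots. The intervals were tried on data simulated with counting error alone, the error they assume. Spread between ants was not part of that simulation. No test of temperature was made. The aquaporin contig and the gene lists were chosen with earlier results of these data known. Lists hold contigs with fixed words in their NR or NT description, and a contig may stand in more than 1 list. The contigs named are aquaporin, the 5 of each of 6 lists with the largest total, and the 10 described contigs nearest in log2 ratio with a total within 2-fold. The other contigs were named after their values were seen. Alternatives covered scaling, pseudocount, FPKM, a minimum total of 100 counts and the annotation searched.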

Additional observations from a re-analysis of the deposited data

How the results depend on the processing

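The log2 ratio of the aquaporin contig stayed positive under the 8 alternatives. It was 7.61 with the median of the 3 ribosomal protein contigs set to 0, which is outside the counting interval of the ratio and follows from their median of -2.78. Under the other 7 it lay between 4.38 (pseudocount of 5) and 5.55 (scaling by the sum of the table's counts), and it was 4.94 unscaled, 4.95 with the study's clean reads and 5.12 from FPKM. A search of NR alone or of each annotation column also found 1 contig. With the ribosomal median set to 0, the share of contigs higher in T9 was 90% for polyols, 100% for trehalose, ion transport, Malpighian tubule, salivary gland, cuticle, muscle and eye, and 56.0% for antenna. It was 91.3% for the whole table. With at least 100 counts it was 0.0% of 13 antennal contigs. The eye list had no contig with 100 counts. The triacylglycerol list was at 66.7% in both settings, against 33.3%. The other shares stayed within their binomial intervals, which are too wide for lists this short to show stability. No paired analysis was possible because each temperature has 1 library. The 9 counts in T25 set the width of the counting interval, and no spread between ants is known.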

Other observations

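The aquaporin contig's own counts were used as limits to list contigs with as few counts in T25 and as many in T9. Of 1298 contigs with at most 9 counts in T25, 6 had at least 305 counts in T9, aquaporin among them by the choice of limits. Their small number is not read as a result, since the limits and the selection of the table shape it. The other contigs within these limits are given for description only. Those with a known match, chosen after their values were seen, were the trehalose transporter given above, an α-glucosidase-like contig (c73740_g2_i1), of a family of sugar-splitting enzymes, with 373 counts in T9 and 6 in T25 (57.5-fold higher in T9, counting interval 26.2 to 157.8), a SETMAR-like histone methyltransferase (c65440_g1_i3), of a family derived from a mobile element, with 366 in T9 and 6 in T25 (56.4-fold, 25.7 to 154.8), and fatty acyl-CoA reductase 1 (c89980_g2_i1). The remaining contig, c91446_g1_i1, had no match in NR or NT and 3465 counts in T9 against 3 in T25, 1069-fold higher (365 to 5185).

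The fat body list held vitellogenin-3 (c74904_g1_i2), a yolk protein made by the fat body, with 142 counts in T9 and 2 in T25, 65.7-fold higher in T9. In the same list the storage protein arylphorin (c72825_g1_i1) had 18 counts in T9 and 386 in T25, and hexamerin (c78787_g1_i1) had 24 in T9 and 200 in T25, so the markers of this tissue did not share a direction.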
